A study of Rattus norvegicus with 18 samples.

Results

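Slc2a1, Slc2a4, Hk2 and Pdk4 cover 3 steps of glucose use in the heart: cell entry, trapping by phosphorylation and control of pyruvate oxidation. They were chosen by Ensembl identifier, and all 4 were found among the 32545 genes of the table (ENSRNOG00000007284 for Slc2a1, ENSRNOG00000017226 for Slc2a4, ENSRNOG00000006116 for Hk2 and ENSRNOG00000009565 for Pdk4). The symbols came with the choice of members and are not in the table itself. RNA was measured in the hearts of outbred male Wistar rats that weighed 250 g at the start. The saline group (6 animals, numbered 51 to 56) received 5 weekly intravenous injections of saline. The DOX+saline group (6 animals, 1 to 6) received 5 weekly intravenous injections of doxorubicin at 3 mg/kg per week, with subcutaneous saline. The DOX+AICAR group (6 animals, 7 to 12) received the same doxorubicin course with subcutaneous AICAR at 0.5 g/kg. Each animal gave 1 library. No group received AICAR without doxorubicin, the sources used here do not state the animals' age or feeding state at collection, and the saline animals carry a separate number series, so a difference between cohorts and an effect of doxorubicin cannot be told apart.

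Doxorubicin, an anthracycline given against cancer, traps topoisomerase II on DNA and is toxic to the heart. Once inside cells, AICAR is turned into a compound that resembles AMP and switches on AMPK, the kinase that senses low energy. Glucose enters cardiomyocytes through GLUT1 (Slc2a1), the transporter of basal uptake that prevails in the fetal heart, and GLUT4 (Slc2a4), the insulin-responsive transporter of the adult heart, which insulin, contraction and AMPK bring to the cell surface. Hexokinase 2 (Hk2) then phosphorylates glucose and so keeps it in the cell. Pyruvate dehydrogenase kinase 4 (Pdk4) phosphorylates and inhibits the pyruvate dehydrogenase complex, which limits glucose oxidation. Its RNA is known to be raised by fasting and by fatty acids through PPAR receptors. The values below are RNA levels, not transport or enzyme activity.

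The stretch upstream of the annotated start is shown for the members with an entry in the RefSeq promoter table (build GRCr8, 3 of 4 members). Slc2a4 had no entry. Whether these letters bear on the changes reported below was not tested. Each run is the 250 bases before the start, 5′ to 3′ on the gene's strand. It lies at chr5:138002272-138002521 (plus strand) for Slc2a1, chr4:116841276-116841525 (minus strand) for Hk2 and chr4:34568330-34568579 (minus strand) for Pdk4. Capitals mark matches, on either strand, to any of 6 motifs. These were the TATA box (TATAAA), the GC box bound by Sp1-type factors (GGGCGG), the core of the hypoxia response element (ACGTG), the site of FOXO factors (GTAAACA), the single-repeat site of nuclear receptors (AGGTCA) and the CAAT box (CCAAT).
Slc2a1: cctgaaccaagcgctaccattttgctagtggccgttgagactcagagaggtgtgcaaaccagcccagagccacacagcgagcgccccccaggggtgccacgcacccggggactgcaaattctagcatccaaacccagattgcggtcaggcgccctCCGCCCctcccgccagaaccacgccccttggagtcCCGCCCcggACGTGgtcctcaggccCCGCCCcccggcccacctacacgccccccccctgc
Hk2: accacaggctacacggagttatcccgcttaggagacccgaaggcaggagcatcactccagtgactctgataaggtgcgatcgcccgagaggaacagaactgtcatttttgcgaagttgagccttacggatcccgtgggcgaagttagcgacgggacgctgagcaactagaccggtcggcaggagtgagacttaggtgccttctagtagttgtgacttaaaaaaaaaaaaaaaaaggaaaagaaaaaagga
Pdk4: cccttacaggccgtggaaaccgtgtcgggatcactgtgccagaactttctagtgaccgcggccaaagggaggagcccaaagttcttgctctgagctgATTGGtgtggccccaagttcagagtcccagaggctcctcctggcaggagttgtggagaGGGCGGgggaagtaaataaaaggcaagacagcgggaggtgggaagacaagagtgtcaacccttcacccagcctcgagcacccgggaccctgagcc
The Slc2a1 window held 3 GC boxes on the opposite strand, 95, 60 and 35 bases before the start. It also held 1 hypoxia core on the gene's strand at 51 bases. The Pdk4 window held 1 GC box at 95 bases and 1 CAAT box on the opposite strand at 153 bases. The Hk2 window held none of the 6, and no matches overlapped. Among 33469 windows of the same length, 30.5% held the GC box, 16.6% the hypoxia core, 34.0% the CAAT box, 12.9% the TATA box, 14.1% the nuclear receptor site and 3.21% the FOXO site. G and C made up 68.4% of the Slc2a1 window, 59.2% of the Pdk4 window and 49.6% of the Hk2 window, where the median window had 51.2%. These matches describe the letters only, and no measurement here shows a factor bound at them.

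Expression was deposited as TPM, the number of transcripts of a gene per 1000000 transcripts. It is a share of each library's RNA corrected for gene length. Levels of different genes can be set side by side only as far as the gene lengths used are right. Libraries held 20.57 to 31.32 M reads (M, 1000000) assigned to genes, recovered from the steps between TPM values. Each member was well covered, from 730 reads for Slc2a1 in its lowest library to 21059 for Slc2a4 in its highest. Counting error was at most 3.70% of the value for Slc2a1, 2.30% for Pdk4, 1.44% for Hk2 and 1.04% for Slc2a4, below the spread between animals in every group. Differences between groups were tested with limma on log2(TPM + 1) across 14732 genes with all 18 libraries in 1 fit, and called at an adjusted p (Benjamini-Hochberg over those genes) under 0.05.

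In the saline heart the order of levels per length was Slc2a4, then Pdk4, then Hk2, then Slc2a1. Slc2a4 averaged 514 ± 39.3 TPM and ranked 309th of the 14732 genes by level, and Pdk4 averaged 215 ± 85.2 TPM (SD, n = 6 each). Hk2 averaged 103 ± 6.76 TPM and Slc2a1 25.2 ± 3.62 TPM (SD, n = 6). No 2 of these neighbours in the order overlapped across saline animals, apart from Pdk4 and Hk2: Pdk4 stood at 103 TPM in saline animal 51 and 113 TPM in animal 52, within the Hk2 range of 95.3 to 114 TPM. After doxorubicin Pdk4 took the first place in the order of means, with Slc2a4 below it, and Hk2 and Slc2a1 stayed in their places.

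**Figure D1:**
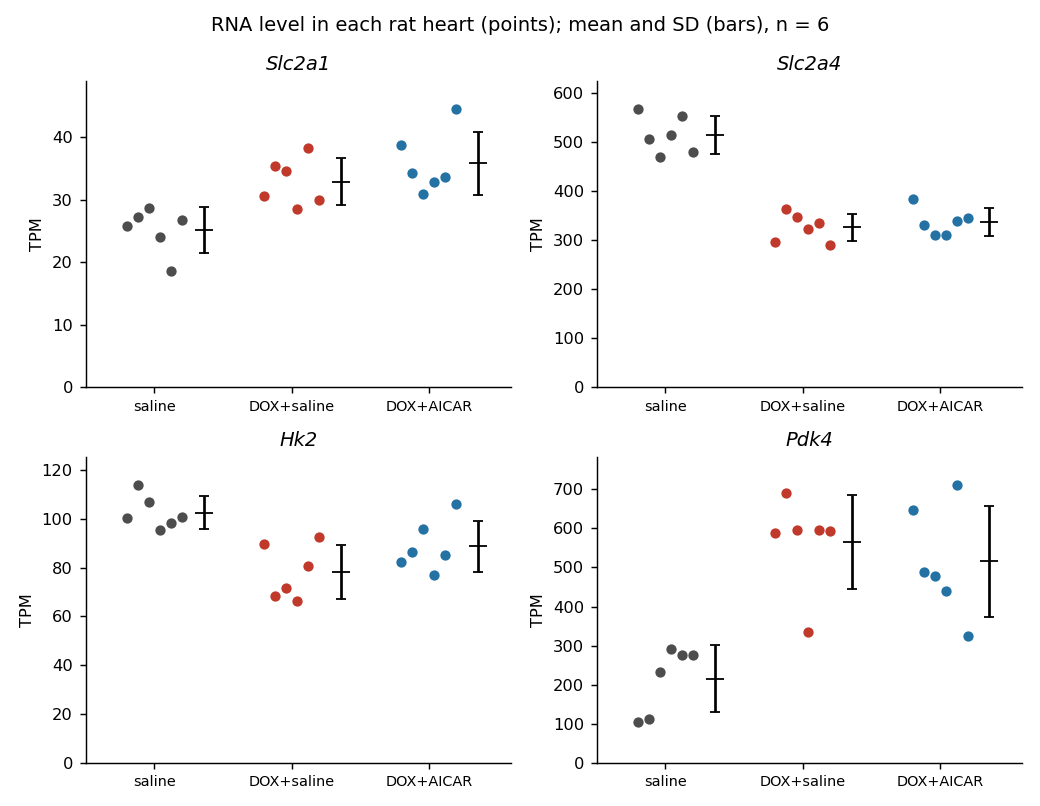
TPM (linear axis from 0) of Slc2a1, Slc2a4, Hk2 and Pdk4 in each of the 18 hearts, by group, with animals in order of number from left to right and the group mean and SD beside them (n = 6). Slc2a4 and Pdk4 separate the saline hearts from both doxorubicin groups in opposite directions, Slc2a1 and Hk2 move by less, and the DOX+saline and DOX+AICAR points overlap in every panel.

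The comparison of DOX+saline with saline holds any effect of doxorubicin together with any difference between the cohorts. Pdk4 and Slc2a1 rose, and Slc2a4 and Hk2 fell, so all 4 members were called. This was a comparison in which 58.0% of the genes tested were called (38.0% higher and 20.0% lower), so the count of 4 says little about these genes in particular. Which direction prevailed across the table depended on the scaling. On unscaled TPM 5595 genes were called higher and 2943 lower, median-of-ratios factors gave 4040 and 4396, and quantile normalization 3424 and 4919. The directions of the 4 members stayed the same under all 3. The sizes differed more than the calls: Pdk4 changed 2.78-fold, while the other members changed by 1.58-fold or less. In bulk heart RNA, fewer cells of a type and less RNA per cell cannot be told apart. Markers of cardiomyocytes, endothelium and blood were not analysed here, because the identifiers could not be paired with symbols, so the part of cell composition in these changes was not tested.

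Slc2a1, the basal transporter, was the lowest of the members. In saline hearts it ranged from 18.5 to 28.7 TPM with a median of 26.3 TPM. In DOX+saline hearts it ranged from 28.6 to 38.2 TPM with a median of 32.5 TPM. The groups touched at 1 point only, since DOX+saline animal 4 (28.6 TPM) lay just below saline animal 53 (28.7 TPM) and the other 5 DOX+saline animals lay above all saline animals. Slc2a1 rose 1.30-fold (log2 change 0.38, SE 0.10, 95% interval 0.16 to 0.60, limma adjusted p = 0.00454). Of the genes tested, 25.0% rose by more.

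The Slc2a1 call was the one closest to the threshold in this comparison, and its size depended on the scaling. The median gene rose by 0.10 on the log2 scale with TPM as deposited, and that median was shifted by -0.11 with median-of-ratios factors and by -0.16 with quantile normalization. Slc2a1 changed by 0.26 with median-of-ratios factors (limma adjusted p = 0.0488) and by 0.28 with quantile normalization (limma adjusted p = 0.0348). Measured against the median gene of the same fit, its rise was 0.28, 0.27 and 0.34 under the 3 scalings. The rise was therefore positive and called in each of them.

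Slc2a4, the insulin-responsive transporter, was lower in every doxorubicin heart than in any saline heart. Its saline values ran from 468 to 568 TPM with a median of 509.5 TPM. Its DOX+saline values ran from 290 to 363 TPM with a median of 329 TPM. The groups did not overlap: animal 2 was the highest DOX+saline heart at 363 TPM, and animal 53 the lowest saline heart at 468 TPM. Non-overlap in the lower direction was seen in 11.2% of the genes tested. The log2 change was -0.66 (SE 0.07, 95% interval -0.80 to -0.52, limma adjusted p = 2.8e-07), a level of 0.633 of saline. Only 3.07% of genes fell by more. Its SD between animals was 7.64%, 8.70% and 8.31% of the mean (saline first, then DOX+saline, then DOX+AICAR). On the log2 scale this spread was ordinary. It was larger than that of 58.4%, 43.2% and 49.9% of the 11174 genes that averaged 5 TPM or more, in the same order of groups.

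Hk2, the enzyme that traps glucose in the cell, also fell. Saline hearts held 95.3 to 114 TPM with a median of 100.5 TPM. DOX+saline hearts held 66.5 to 92.7 TPM with a median of 76.2 TPM. The groups did not overlap, as was so in the lower direction for 11.2% of genes. DOX+saline animals 6 (92.7 TPM) and 1 (89.8 TPM) nevertheless came close to the lowest saline heart. The log2 change was -0.40 (SE 0.09, 95% interval -0.58 to -0.21, limma adjusted p = 0.000887), a level of 0.760 of saline. Of the genes tested, 9.22% fell by more.

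Pdk4, the brake on pyruvate dehydrogenase, showed the largest change of the 4 and the widest spread. Its saline values ran from 103 to 293 TPM with a median of 253 TPM. Saline animals 51 and 52, at 103 and 113 TPM, lay below the other saline animals, which held 232 to 293 TPM. In DOX+saline hearts it ran from 334 to 690 TPM with a median of 594 TPM. Animal 4 was the lowest at 334 TPM, and the other 5 held 588 to 690 TPM. Even so, every DOX+saline heart lay above every saline heart, as was so in the higher direction for 21.1% of genes. The log2 change was 1.48 (SE 0.27, 95% interval 0.91 to 2.04, limma adjusted p = 0.000159). Of the genes tested, 2.91% rose by more, and 6.68% were called at 2-fold or more in this direction.

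The spread of Pdk4 between animals was larger than that of most genes, which were not matched to it by level. In saline its highest value was 2.83 times its lowest, where the same figure was 1.20 for Hk2, 1.21 for Slc2a4 and 1.55 for Slc2a1. Its SD on the log2 scale was 0.68 in saline, larger than that of 98.3% of the 11174 genes that averaged 5 TPM or more. In DOX+saline the SD was 0.37, larger than that of 90.5% of those genes, and in DOX+AICAR it was 0.41, larger than that of 94.5%. The fit uses 1 spread for all 3 groups, which for Pdk4 averages these values. Hk2 showed the opposite order of spread, with an SD of 0.09 in saline and 0.20 in DOX+saline.

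**Figure D2:**
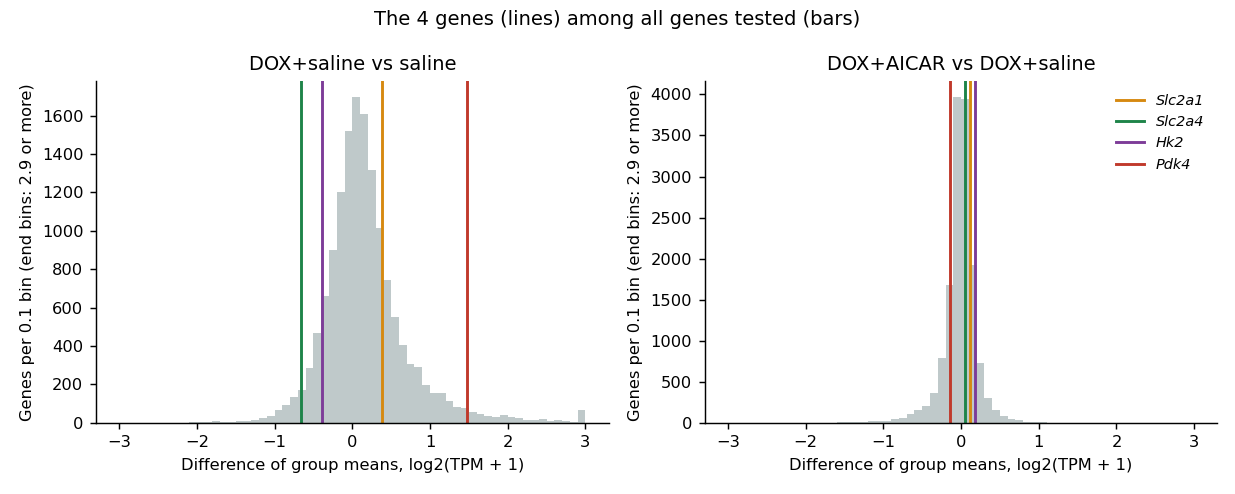
Histograms of the log2(TPM + 1) difference for the 14732 genes tested (bars, 0.1 per bin, with genes beyond the axis in the end bins) and the position of the 4 members (coloured lines), for DOX+saline vs saline on the left and DOX+AICAR vs DOX+saline on the right. On the left Pdk4 lies at 1.48, in the upper tail, and Slc2a4 at -0.66, in the lower one. On the right all 4 lie between -0.15 and 0.18.

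Whether AICAR altered these genes in rats given doxorubicin was asked by setting DOX+AICAR beside DOX+saline. None of the 4 was called by limma (0 of 4 at an adjusted p under 0.05, and 1 of 4, Hk2, at an unadjusted p under 0.05), in a comparison in which 1.33% of genes were called. In each of the 4 genes the animals of both groups overlapped, where 1.51% of all genes did not overlap. The intervals show what sizes the data allow: the standard error was 0.07 for Slc2a4, 0.09 for Hk2, 0.10 for Slc2a1 and 0.27 for Pdk4 on the log2 scale.

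Slc2a4 ranged from 309 to 385 TPM in DOX+AICAR with a median of 335 TPM, against the 290 to 363 TPM of DOX+saline. The log2 difference was 0.05 (SE 0.07, 95% interval -0.09 to 0.19, limma adjusted p = 0.746), which in fold runs from 0.940 to 1.14. Slc2a1 ranged from 30.9 to 44.5 TPM with a median of 33.9 TPM. Its highest values were in DOX+AICAR animals 12 (44.5 TPM) and 7 (38.7 TPM), both above all DOX+saline hearts. The log2 difference was 0.12 (SE 0.10, 95% interval -0.10 to 0.33, limma adjusted p = 0.599), from 0.932 to 1.26 in fold.

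Hk2 in DOX+AICAR hearts ranged from 77.0 to 106 TPM with a median of 85.9 TPM. Animals 12 (106 TPM) and 9 (95.8 TPM) lay above all DOX+saline hearts, and the other 4 lay within the DOX+saline range. The difference of 0.18 on the log2 scale (SE 0.09, 95% interval 0.00 to 0.37) had an unadjusted p of 0.0487, and 17.6% of genes had an unadjusted p under 0.05. Its limma adjusted p was 0.280. An exact two-sided permutation test over all assignments of the 12 animals gave p = 0.113.

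Pdk4 in DOX+AICAR hearts ranged from 326 to 712 TPM with a median of 484 TPM. Animal 12 was the lowest at 326 TPM, below all DOX+saline hearts, and animal 11 the highest at 712 TPM, above all of them. The log2 difference was -0.15 (SE 0.27, 95% interval -0.71 to 0.42, limma adjusted p = 0.818). In fold the interval ran from 0.611 to 1.34, which takes in changes in either direction. Without DOX+AICAR animal 12 the log2 difference was -0.02 (limma adjusted p = 0.976), and without DOX+saline animal 4 it was -0.29 (limma adjusted p = 0.616).

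DOX+AICAR against saline asked whether the doxorubicin differences were also there in animals given AICAR. It shares the saline animals with the first comparison, so the 2 sets of values are given side by side and not as separate evidence. Here 53.3% of genes were called, 34.8% higher and 18.4% lower, and all 4 members were again among them. This split also depended on the scaling: 5133 higher and 2717 lower became 3735 and 4160 under median-of-ratios factors and 3207 and 4703 under quantile normalization, while the members kept their directions. Pdk4 was 2.51-fold higher (log2 change 1.33, SE 0.27, limma adjusted p = 0.000474) and Slc2a1 1.41-fold higher (log2 change 0.50, SE 0.10, limma adjusted p = 0.000626). For these genes the 6 DOX+AICAR hearts all lay above the 6 saline hearts, as was so for 22.9% of genes. Slc2a4 was lower (log2 change -0.61, SE 0.07, limma adjusted p = 8.69e-07) with no overlap, as was so in that direction for 11.6% of genes.

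Hk2 lay only just past the threshold against saline in the animals given AICAR. Its mean was 88.8 ± 10.4 TPM in DOX+AICAR, between 78.3 ± 11.2 TPM in DOX+saline and 103 ± 6.76 TPM in saline (SD, n = 6 each). The log2 change from saline was -0.21 (SE 0.09, 95% interval -0.39 to -0.03, limma adjusted p = 0.0497). The groups overlapped, with 4 of 6 DOX+AICAR hearts below all saline hearts. The call was lost in 11 of the 18 fits that left out 1 animal, where the change ranged from -0.26 to -0.17 and the limma adjusted p from 0.0147 to 0.119. Those were the fits without saline animal 51, 52, 53, 55 or 56, DOX+saline animal 3 or 5, or DOX+AICAR animal 7, 8, 10 or 11. Without the filter on low values the limma adjusted p was 0.076.

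**Figure D3:**
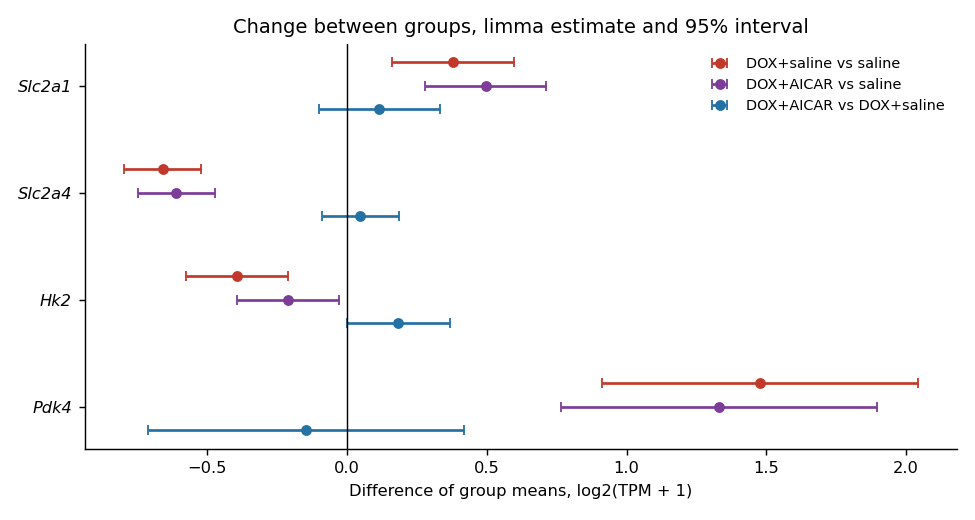
Limma estimates of the difference between group means on the log2(TPM + 1) scale (points) with 95% intervals (bars) for each member and each of the 3 comparisons. The intervals of both comparisons with saline exclude 0 for all 4 genes, although that of Hk2 in DOX+AICAR vs saline ends at -0.03. The intervals of DOX+AICAR vs DOX+saline include 0 for Slc2a1, Slc2a4 and Pdk4, and that of Hk2 starts at 0.001.

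Ratios of 2 members within a heart are unchanged by any scaling that applies 1 factor to a library (quantile normalization does not), and they were compared with exact two-sided permutation tests over all assignments of the 12 animals compared, adjusted over the 6 tests made (2 ratios in 3 comparisons). Each ratio pairs a member called higher than saline with a member called lower, and the tests were chosen with earlier results known. Its difference from saline therefore follows largely from the changes of the single genes and is not separate support for them. The balance of the transporters moved towards Slc2a1. Of the summed TPM of Slc2a1 and Slc2a4, Slc2a1 made up 4.70 ± 0.893% in saline hearts. This share was 9.18 ± 0.697% in DOX+saline hearts and 9.61 ± 0.915% in DOX+AICAR hearts (SD, n = 6 each). The saline hearts ran from 3.24 to 5.77%, and the lowest heart given doxorubicin, DOX+saline animal 4, stood at 8.12%. Folds of ratios come from the means of the log2 ratios. The ratio of Slc2a1 to Slc2a4 was 2.08-fold higher in DOX+saline than in saline, higher in 6 of 6 animals (exact permutation p = 0.00216, which is the lowest value this design allows, adjusted p = 0.00325). In DOX+AICAR it was 2.18-fold higher than in saline (exact permutation p = 0.00216, adjusted p = 0.00325) and 1.05-fold that of DOX+saline (exact permutation p = 0.396, adjusted p = 0.396).

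The sum of both transporters was lower with doxorubicin, since Slc2a4 makes up most of it. It averaged 539 ± 37.1 TPM in saline hearts, 358 ± 31.0 TPM in DOX+saline hearts and 372 ± 31.3 TPM in hearts given AICAR as well (SD, n = 6 each). The saline hearts ran from 497 to 593 TPM and those given doxorubicin from 320 to 423 TPM. The gain in Slc2a1 was small beside the loss in Slc2a4: mean Slc2a1 was 25.2 TPM in saline hearts against 32.9 TPM in DOX+saline hearts, and mean Slc2a4 514 against 326 TPM.

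Hk2 and Pdk4 also changed in opposite directions, but here the levels moved further apart, since the higher gene rose and the lower one fell. The ratio of Pdk4 to Hk2 averaged 2.13 ± 0.915 in saline hearts, 7.29 ± 1.76 in DOX+saline hearts and 5.94 ± 1.94 in DOX+AICAR hearts (SD, n = 6 each). By the means of the log2 ratios, it was 3.69-fold higher in DOX+saline than in saline and 2.92-fold higher in DOX+AICAR. Both comparisons had exact permutation p = 0.00216 and adjusted p = 0.00325, with the ratio higher in 6 of 6 animals. DOX+AICAR animal 12, at 3.0716, barely exceeded saline animal 54, at 3.0694, while the other 5 DOX+AICAR hearts held 5.002 to 8.36. Between DOX+AICAR and DOX+saline the ratio of Hk2 to Pdk4 differed 1.26-fold (exact permutation p = 0.221, adjusted p = 0.265), with overlap.

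Pdk4 RNA exceeded Slc2a4 RNA in 0 of 6 saline hearts, 6 of 6 DOX+saline hearts and 5 of 6 DOX+AICAR hearts. The ratio of Pdk4 to Slc2a4 ran from 0.182 to 0.574 in saline hearts, from 1.03 to 2.04 in DOX+saline hearts and from 0.942 to 2.10 in DOX+AICAR hearts. DOX+saline animal 4 (1.03) and DOX+AICAR animal 12 (0.942) were the doxorubicin hearts nearest to equal levels, and these were also the hearts with the lowest Pdk4 of their groups.

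**Figure D4:**
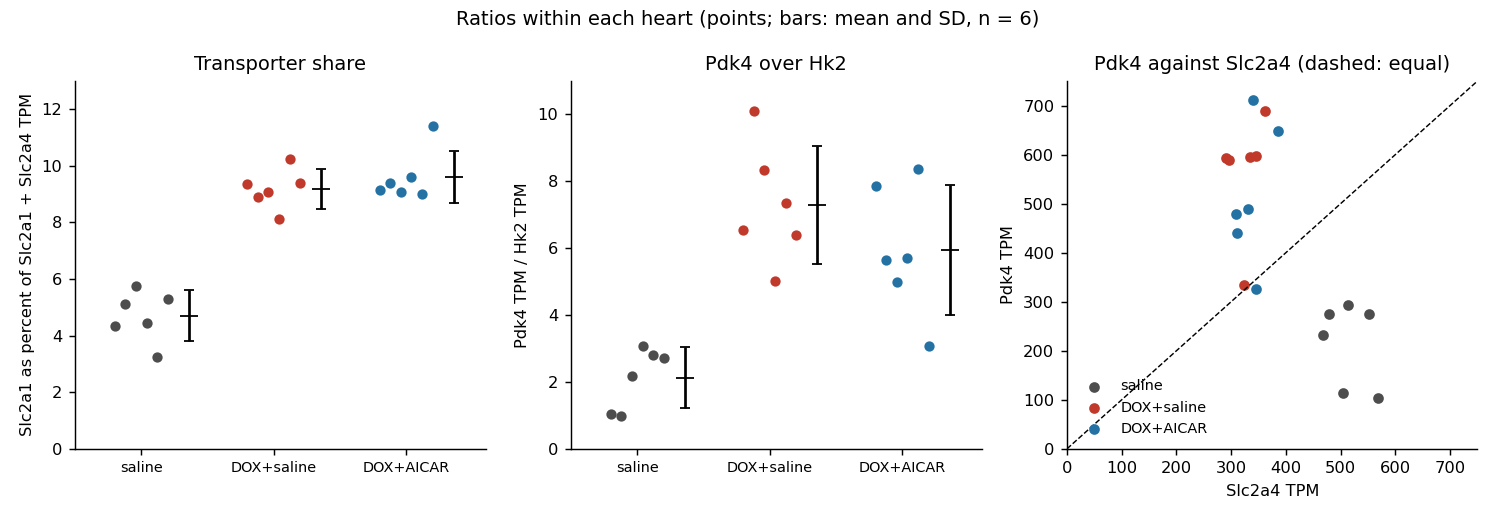
Left: Slc2a1 as percent of the summed TPM of both transporters in each heart; middle: Pdk4 TPM divided by Hk2 TPM; right: Pdk4 TPM against Slc2a4 TPM, with a dashed line where they are equal (bars on the left and in the middle: mean and SD, n = 6). Saline hearts lie from 3.24 to 5.77% on the left, below all hearts given doxorubicin, and below the dashed line on the right, where 1 DOX+AICAR heart lies below it too.

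Within a group the 4 genes did not rise and fall together from animal to animal in a way these numbers could establish. Of 18 correlations (6 pairs of genes in 3 groups, n = 6 each, log2(TPM + 1), exact permutation over 720 pairings), none had a Pearson p under 0.05, and the smallest adjusted p was 0.586. Spearman's rho reached an exact permutation p of 0.0333 (adjusted p = 0.30) for Slc2a1 with Hk2 in saline and for Slc2a1 with Slc2a4 in DOX+AICAR. The largest Pearson correlation in size was that of Slc2a4 and Hk2 in DOX+saline (r = -0.815, exact permutation p = 0.0583, Spearman's rho = -0.657, p = 0.175). It was -0.0965 in the 4 animals left without the 2 farthest from the median of Slc2a4, a number of animals too small to fix a correlation.

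For each member the gene with the most similar pattern was sought by Pearson correlation of log2(TPM + 1) over the 18 libraries, among 11173 other genes that averaged 5 TPM or more. The libraries share their groups, so such a correlation holds both the differences between groups and those between animals, and is given as a description beside its value within groups. Slc2a4 had the most company: 491 genes correlated with it above 0.9, against 7 for Pdk4 and 0 each for Hk2 and Slc2a1. The closest to Slc2a4 was ENSRNOG00000042503 (r = 0.982, and 0.860 after group means were taken out), with 1091 ± 35.9 TPM in saline hearts and 812 ± 58.3 TPM in DOX+saline hearts (SD, n = 6). The closest to Pdk4 was ENSRNOG00000054999 (r = 0.952, and 0.844 within groups), with 18.2 ± 3.00 TPM in saline hearts and 29.1 ± 3.53 TPM in DOX+saline hearts (SD, n = 6). The closest to Slc2a1 was ENSRNOG00000009993 (r = 0.8999, and 0.742 within groups), and the closest to Hk2 was ENSRNOG00000002730 (r = 0.858, and 0.671 within groups). The last of these averaged 549 ± 29.8 TPM in saline hearts, 442 ± 49.0 TPM in DOX+saline hearts and 492 ± 30.6 TPM in DOX+AICAR hearts (SD, n = 6). That is the order of groups seen in Hk2, which a choice by correlation over all 18 libraries favours.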

How the data were processed

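Heart RNA of 18 rats (6 saline, 6 DOX+saline, 6 DOX+AICAR, grouped by the treatment label) was analysed. Polyadenylated RNA was made into strand-specific paired-end libraries, per the labels' protocols. The submitters' processing notes name bcl2fastq 2.17.1.14, HISAT2, the build Rnor_6.0 and featureCounts of Subread 1.5.0. Which HISAT2 version, annotation and strand option were used is not given in the sources used here. The authors deposited TPM values, which sum to 1000000 in each library. A TPM is a share, so a rise of some genes lowers others.

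Whole reads were recovered from ratios of TPM values between libraries. All 25878 genes above 0 came out whole within 0.001 reads. The read unit was found from each gene's own values, so this is no check for genes above 0 in few libraries. The lengths of the 12056 genes checked came out whole within 0.05 bp. For the members these lengths were 2592 bp (Slc2a1), 2506 bp (Slc2a4), 5432 bp (Hk2) and 1573 bp (Pdk4). Reads carry no molecular identifiers, so counting errors cover counting only.

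The 14732 genes that reached 1 TPM in 6 or more libraries, all 4 members among them, were fitted with limma 3.58.1 (R 4.3.3) on log2(TPM + 1) with a mean per group, a mean-variance trend and 1 shared spread. P-values are two-sided. Alternatives were other pseudocounts (0.1, 0.5), filters (none, 5 TPM), scalings, spread models, only the 12 libraries compared, leaving out each animal, and voom on the recovered reads. Permutation and motif searches used Python 3.11.15.

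The members, lists and tests were chosen with earlier results of these data known. Named genes were the 4 members and, for each, the 1 most similar identifier. The RefSeq gene table (GRCr8, 47357 genes) matched 0 of the 32545 identifiers, so 6 pathway lists and the cell type markers, set by symbol, gave no values and are not analysed here. Where animals were housed or processed together is not given, so no test accounts for it. Each p-value sets a difference or correlation against the variation between the animals used in that test.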

Additional observations from a re-analysis of the deposited data

Results flagged for a closer look

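An animal is listed here if its distance to the next animal exceeded Dixon's 95% critical share of the range of its group. This was so for 2 of 18 groups of 6 values (4 genes and 2 ratios in 3 groups), where chance alone gives about 0.9.

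Pdk4 in DOX+saline animal 4 stood at 334 TPM, where the other 5 animals of its group held 588 to 690 TPM. Without this animal the log2 change of Pdk4 was 1.62 against saline (limma adjusted p = 7.93e-05) and -0.29 between DOX+AICAR and DOX+saline (limma adjusted p = 0.616).

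The ratio of Slc2a1 to Slc2a4 in DOX+AICAR animal 12 was 0.129, where the other 5 animals of its group held 0.0989 to 0.106. The same animal had the highest Slc2a1 (44.5 TPM) and Hk2 (106 TPM) and the lowest Pdk4 (326 TPM) of its group. Without it the log2 differences between DOX+AICAR and DOX+saline moved closer to 0. Pdk4 went from -0.147 to -0.024, Slc2a1 from 0.116 to 0.053, Hk2 from 0.184 to 0.132, the ratio of Slc2a1 to Slc2a4 from 0.071 to 0.015 and that of Hk2 to Pdk4 from 0.334 to 0.158. None of these passed the test with or without this animal.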

How the results depend on the processing

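Voom on recovered reads was added after seeing the data. In the comparisons with saline, Pdk4, Slc2a4, Slc2a1 and Hk2 kept direction and call in all 29 alternatives each, except Hk2 in DOX+AICAR against saline, which kept its call in 16. Hk2 there stayed at -0.211 on the log2 scale but lost its call without the filter on low values and with robust empirical Bayes. Leaving out 1 animal gave -0.263 to -0.171, and the other scalings strengthened it (limma adjusted p = 0.00371 and 0.0162). In DOX+AICAR against DOX+saline none of the 4 members was called under any of the 29 alternatives, and the signs stayed as reported. The 6 ratio tests kept direction and call in all 13 alternatives each. The number of genes called across the table, used as background, stayed within 1.5 times in total against saline (7000 to 10014 and 6541 to 8722), although its split by direction depended on the scaling. It did not do so between DOX+AICAR and DOX+saline: 196 genes became 16 with only the 12 libraries compared, 321 with quantile normalization, 1058 with array weights, and 36 to 461 when 1 animal was left out. No paired analysis was possible because the groups share no animal numbers. Each member had 730 reads or more in each library.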
